A study of Mus musculus with 2 samples.

Results

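The Bcl2 family decides at the mitochondrial outer membrane whether a cell enters apoptosis. The 9 genes described here (*Bcl2l1*, *Bcl2*, *Mcl1*, *Bax*, *Bak1*, *Bcl2l11*, *Pmaip1*, *Bbc3* and *Bnip3l*) were taken by name from the 29453 genes of the spliced and unspliced count tables, and all 9 had UMIs (unique molecular identifiers, each counted as 1 RNA molecule) in both tables. Their levels in erythroid and blood progenitor cells were set against those in non-blood cells of chimeric mouse embryos. The embryos had been made by injecting tdTomato-expressing pluripotent stem cells with a frameshift in *Gata1*, the major transcription factor of erythroid maturation, into wildtype C57BL/6 blastocysts. All mutant cells came from 1 clone. Cells of 6 pooled embryos were separated by fluorescence into tdTom+ cells, which are Gata1-, and tdTom- cells, which are wildtype host, and each fraction gave 1 10x Genomics library. The tdTom+ sample was labelled E8.5 and the tdTom- sample E8.6, while the protocol shared by both named E8.5.

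In this family, *Bcl2*, *Bcl2l1* (which encodes Bcl-xL) and *Mcl1* encode pro-survival proteins, and *Bax* and *Bak1* encode the effectors that permeabilise the mitochondrial outer membrane. *Bcl2l11* (Bim), *Pmaip1* (Noxa) and *Bbc3* (Puma) encode BH3-only proteins, which antagonise the pro-survival members. *Bnip3l* (Nix) encodes a mitophagy receptor that clears mitochondria from maturing red cells. Bcl-xL is known for keeping maturing erythroid cells alive, downstream of erythropoietin, Stat5 and Gata1.

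The tables held 8981 tdTom+ and 9252 tdTom- barcodes, of which 18 occurred in both libraries, with 167940767 and 157174026 spliced UMIs and medians of 17598 and 15996 per cell. All barcodes were clustered without the 9 genes. Removal of called doublets, and of 1 cluster rich in them, then left 8585 tdTom+ and 8716 tdTom- cells. Groups of these cells were named from marker genes. The tdTom- library gave 1442 erythroid-like cells, and the tdTom+ library gave 1345 blood progenitor-like cells. Few cells of the other fraction fell in these sub-clusters, with 4 erythroid-like cells in tdTom+ and 3 progenitor-like cells in tdTom-. The libraries were clustered together with no correction between them, and some non-blood clusters split by fraction too. An allantois and mesenchyme cluster had 407 tdTom+ and 2 tdTom- cells, and another had 0 and 251. The split therefore does not show that such cells were absent from a fraction. Non-blood cells outside the haemato-endothelial clusters numbered 6812 in tdTom- and 6445 in tdTom+, and endothelial-like cells 374 and 517. All 7 erythroid markers reached at least 10 CPM (UMIs of a gene scaled to one fixed total of UMIs in every group) in the erythroid-like cells, where globins took 9.72% of the UMIs. In the progenitor-like cells, where all 7 reached that level too, globins took 1.98%. Erythroid markers summed to 96312 CPM in the erythroid-like and 19579 CPM in the progenitor-like cells, and 4 of 7 also reached 10 CPM in non-blood cells of both fractions.

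*Gata1* itself had 134 CPM in erythroid-like cells (3736 UMIs) and 30.7 CPM in the progenitor-like cells (918 UMIs). A frameshift need not remove the transcript. The progenitor-like cells held more unspliced (1293) than spliced *Gata1* UMIs, against 327 unspliced UMIs in the erythroid-like cells. The cause of this difference was not tested. Since each fraction was 1 library, no test between cells or fractions was run. Intervals are exact 95% intervals and cover counting error only. Library, genotype and labelled age cannot be told apart in any contrast between the fractions.

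*Bcl2l1* is the member with the textbook link to Gata1, and *Bcl2* was the member with the lowest level in blood relative to other cells, so the 250 bases upstream of their outermost RefSeq starts are shown (GRCm38.p6, minus strand). *Bcl2l1* itself (ENSMUSG00000007659) spans positions 152780668 to 152831728 of chromosome 2 in GRCm38, and *Bcl2* (ENSMUSG00000057329) spans 106538178 to 106714274 of chromosome 1, both on the minus strand. The *Bcl2l1* sequence lies at chr2:152831729-152831978 and the *Bcl2* sequence at chr1:106714291-106714540, neither in an annotated exon.

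Bcl2l1: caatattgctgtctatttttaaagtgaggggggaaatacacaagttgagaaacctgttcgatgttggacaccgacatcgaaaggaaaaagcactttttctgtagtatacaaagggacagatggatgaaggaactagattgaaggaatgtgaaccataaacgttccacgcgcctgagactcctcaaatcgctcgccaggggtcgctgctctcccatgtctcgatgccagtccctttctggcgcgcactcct
Bcl2: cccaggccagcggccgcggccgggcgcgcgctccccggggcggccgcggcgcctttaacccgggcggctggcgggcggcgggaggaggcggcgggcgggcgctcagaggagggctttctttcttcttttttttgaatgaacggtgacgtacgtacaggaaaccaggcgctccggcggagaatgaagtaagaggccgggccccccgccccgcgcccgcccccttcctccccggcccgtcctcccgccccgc

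Capitals would mark AGATAA or TGATAA, the letters of a common GATA motif, on either strand, and neither window held them. Over all 32851 RefSeq windows of this length, 16.6% held at least 1 of these. Of 12 windows upstream of 7 members, 1 held AGATAA. It was upstream of an inner *Bcl2l1* start, in a window that overlaps an annotated exon. No window for *Pmaip1* or *Bnip3l* was used here. These are matches of letters in short windows and not binding data. The *Bcl2* window had a GC content of 74.8% and the *Bcl2l1* window one of 47.6%.

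The first question was how the family is set in blood against other tissues of the same library. *Bcl2* and the BH3-only gene *Bcl2l11* were the lowest in blood relative to non-blood cells in both fractions. *Pmaip1* and *Bnip3l* were lower by less, though in tdTom- the intervals of *Bcl2l11* (-2.57 to -2.04) and *Pmaip1* (-2.55 to -1.50) overlapped. *Mcl1* and *Bax* were at nearly the level of non-blood cells. In tdTom-, 4 of the 9 members were at least 2-fold lower in erythroid-like than in non-blood cells and 0 were higher. Of all 12285 genes with at least 100 UMIs, 41.4% were at least 2-fold lower and 4.59% higher, so the count for the family was close to that for genes in general. In tdTom+, the same 4 members were at least 2-fold lower in progenitor-like cells and 0 were higher, against 32.5% of genes lower and 5.94% higher. Of these 4, *Bnip3l* was not past 2-fold in tdTom- without globin UMIs (-0.91), centred on the median of all genes (-0.41) or with unspliced UMIs added (-0.96), and *Pmaip1* was not in tdTom+ once centred (-0.92). The median log2 fold of the members was -0.87 in tdTom- and -0.46 in tdTom+, and that of all genes -0.65 and -0.36.

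**Figure D1:**
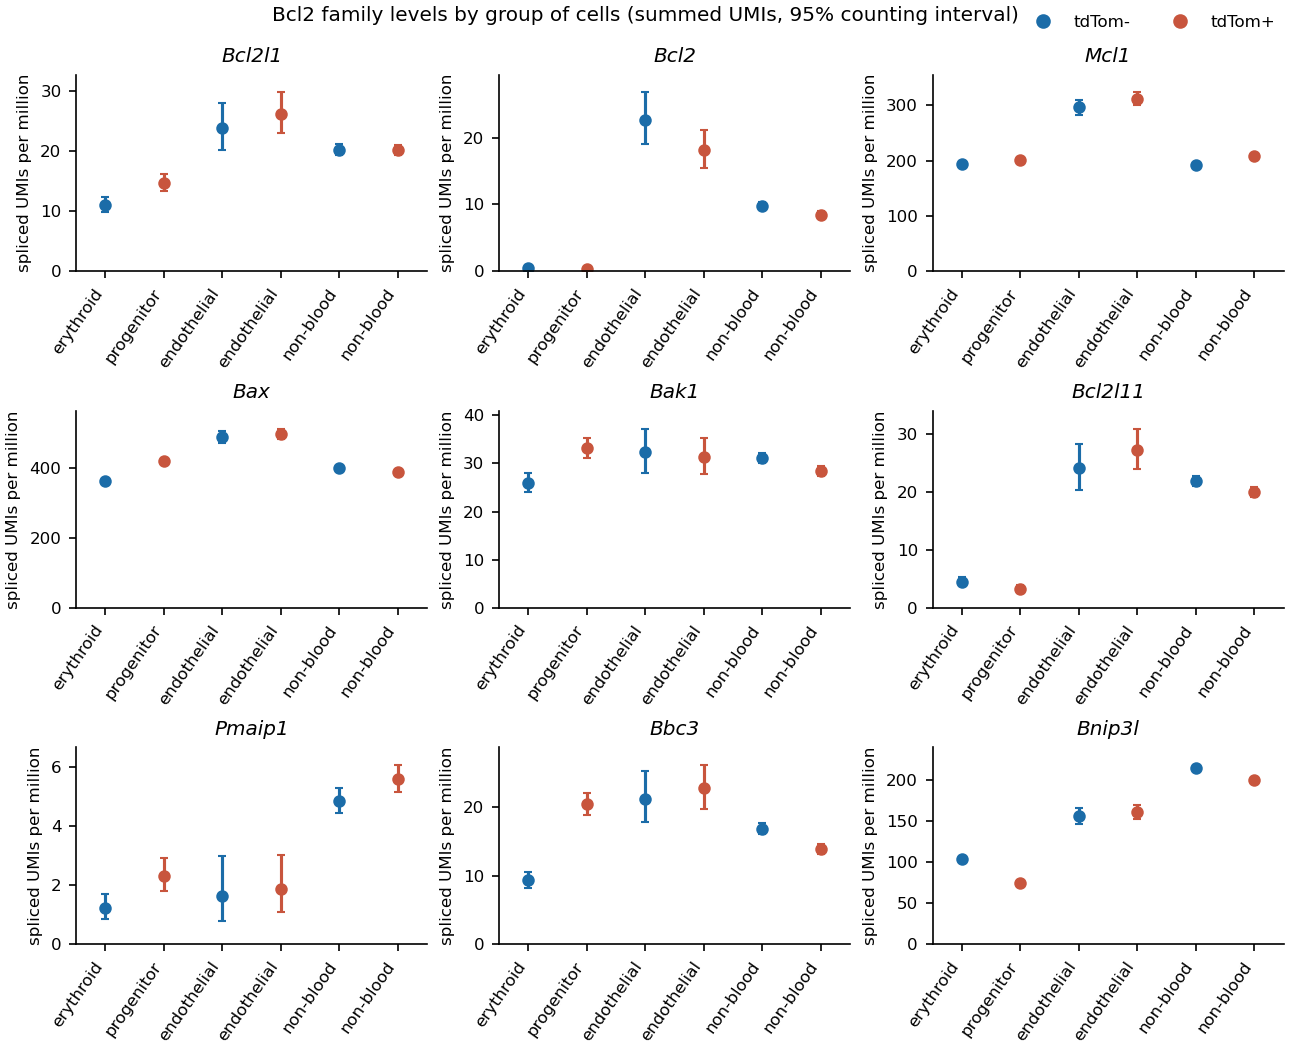
Level of each member in spliced CPM (y axis, from 0) in erythroid-like, blood progenitor-like, endothelial-like and non-blood cells, with tdTom- in blue and tdTom+ in red. Points are summed UMIs of a group and bars are 95% counting intervals. *Bcl2* and *Bcl2l11* are near the bottom in both blood groups, while *Mcl1* and *Bax* are near their non-blood levels.

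Among the pro-survival genes, *Bcl2* stood at 0.572 CPM in erythroid-like cells (16 UMIs, 0.327 to 0.929) and at 9.76 CPM in non-blood cells of the same library (1047 UMIs). In tdTom+ it stood at 0.402 CPM in progenitor-like cells (12 UMIs, 0.208 to 0.702) and at 8.46 CPM in non-blood cells (937 UMIs). On the log2 scale the folds were -4.09 (-4.90 to -3.39) and -4.40 (-5.35 to -3.59), which are 17.1-fold and 21.1-fold lower levels. Blood cells thus held 5.86% and 4.75% of the non-blood *Bcl2* level. Marker lists of non-blood tissues, which blood cells can hold through free RNA, were read in the same way. In erythroid-like cells they stood at 1.60% (cardiac) to 12.0% (neural crest) of their non-blood level, and in progenitor-like cells at 1.68% (cardiac) to 9.65% (neural crest). *Bcl2* in blood lay within these ranges, but above most of the lists. In erythroid-like cells only the neural crest list was higher, and in progenitor-like cells only that list and allantois and mesenchyme (6.96%). The neural crest list is not a clean measure of free RNA, as it summed to 112 CPM in endothelial-like and 93.2 CPM in non-blood tdTom- cells. A low level in blood cells and free RNA from other cells cannot be told apart for *Bcl2*. *Bcl2l11*, at 20.4% and 16.1%, lay above both ranges.

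Endothelial-like cells, which share an embryonic origin with blood, had higher *Bcl2* levels. They held 22.7 CPM in tdTom- (140 UMIs, 19.1 to 26.7) and 18.2 CPM in tdTom+ (164 UMIs, 15.5 to 21.2). The highest of the endothelial sub-clusters, led by *Emcn* and *Esam* and by *Lyve1* and *Plvap*, reached 46.4 and 37.2 CPM in tdTom-, while the lowest of the 8 endothelial-like groups had 7.03 CPM, below the median of 8.57 CPM over the groups of other tissues. Over the 66 groups of at least 50 cells (clusters split by fraction), the 7 erythroid- and progenitor-like groups had 0.339 to 0.979 CPM of *Bcl2*, and 47 of the 48 groups of other tissues were above all of them. The exception was visceral endoderm-like tdTom- cells, at 0.726 CPM. The share of all genes that separate the groups in this way was not counted, here or for the members below.

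*Bcl2l1* was lower in blood than in non-blood cells in both fractions, but by less. It had 11.1 CPM in erythroid-like cells (309 UMIs, 9.85 to 12.4) against 20.2 CPM in non-blood tdTom- cells (2169 UMIs). Progenitor-like cells had 14.7 CPM (438 UMIs, 13.3 to 16.1) against 20.1 CPM in non-blood tdTom+ cells (2230 UMIs). The log2 folds were -0.87 (-1.05 to -0.70) and -0.46 (-0.61 to -0.31). Centred on the median of all genes they were -0.22 and -0.10. In CPM over all UMIs, the 2 blood intervals did not overlap each other or those of the non-blood cells. The gap between the blood groups depends in part on the globin total. Over non-globin UMIs their *Bcl2l1* levels were closer, at 12.24 CPM in erythroid-like and 14.964 CPM in progenitor-like cells. Whether their intervals stay apart on that scale was not tested. The highest *Bcl2l1* levels lay in gut endoderm-like cells led by *Nepn* and *Apela*, with 48.3 CPM in the tdTom+ cells and 44.2 CPM in the tdTom- ones.

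*Mcl1* did not follow this pattern. It had 195 CPM in erythroid-like and 193 CPM in non-blood tdTom- cells, and 201 CPM in progenitor-like and 209 CPM in non-blood tdTom+ cells. Log2 folds stood at 0.01 (-0.03 to 0.06) and -0.05 (-0.09 to -0.01), so a member that kept its share of UMIs stood above the median gene, by 0.66 and 0.31 once folds were centred on it. Endothelial-like cells had more *Mcl1*, at 296 CPM in the tdTom- fraction and 311 CPM in the other.

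Counted within the 3 pro-survival genes, which is free of the globin total, *Mcl1* took 94.4% of UMIs in erythroid-like cells (93.7 to 94.9) and 93.0% in progenitor-like cells (92.4 to 93.6). In non-blood cells it took 86.5% in tdTom- and 87.9% in tdTom+. The share of *Bcl2l1* was 5.36% in erythroid-like cells (4.79 to 5.97), 6.78% in progenitor-like cells (6.18 to 7.42), 9.08% in non-blood tdTom- cells and 8.49% in non-blood tdTom+ cells. These are shares of 3′-end UMIs, not of protein, and adding unspliced UMIs raised the *Bcl2l1* share to 8.33%, 9.80%, 14.04% and 13.65% in the same order.

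**Figure D2:**
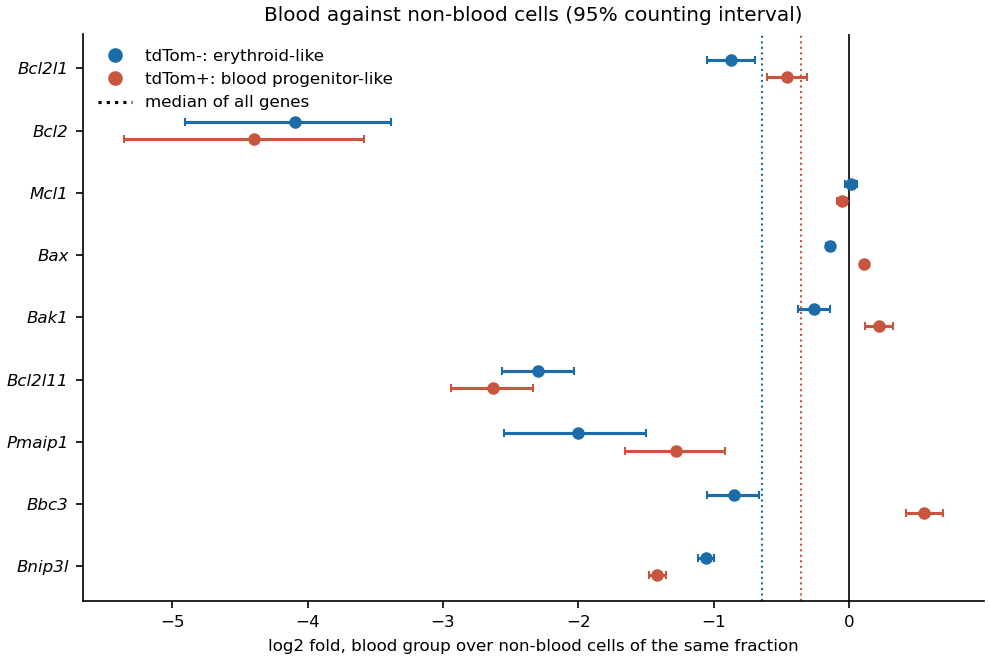
Log2 fold of each member, blood over non-blood cells of the same fraction (x axis), for erythroid-like tdTom- cells in blue and blood progenitor-like tdTom+ cells in red, with 95% counting intervals. Dotted lines mark the median of all genes, -0.65 and -0.36. *Bcl2*, *Bcl2l11*, *Pmaip1* and *Bnip3l* lie left of both lines, and *Bax*, *Bak1* and *Bbc3* change sign between the fractions with both intervals off 0.

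The effectors, *Bax* (ENSMUSG00000003873) and *Bak1* (ENSMUSG00000057789), were close to their non-blood levels. *Bax* had 363 CPM in erythroid-like and 401 CPM in non-blood tdTom- cells, and 420 CPM in progenitor-like and 389 CPM in non-blood tdTom+ cells. *Bak1* had 26.0 and 31.1 CPM in tdTom-, and 33.1 and 28.4 CPM in tdTom+. The folds were, on a log2 scale, -0.14 and 0.11 for *Bax* and -0.26 and 0.22 for *Bak1*, with intervals off 0. The 2 negative values moved with the scaling: without globin UMIs they were 0.00 and -0.11, and centred on the median of all genes they were 0.50 and 0.39.

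Among the BH3-only genes, *Bcl2l11* (ENSMUSG00000027381, chromosome 2, 128126038 to 128162547, plus strand) had 4.47 CPM in erythroid-like cells (125 UMIs, 3.72 to 5.33) against 21.9 CPM in non-blood tdTom- cells (2354 UMIs). In tdTom+ it had 3.21 CPM in progenitor-like cells (96 UMIs, 2.60 to 3.93) against 19.9 CPM (2207 UMIs). The log2 folds were -2.30 (-2.57 to -2.04) and -2.63 (-2.94 to -2.34). Endothelial-like cells had 24.1 and 27.3 CPM, and 45 of the 48 groups of other tissues were above all 7 blood groups. No share over all genes was counted for such a separation.

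*Pmaip1* was scarce, with 1.22 CPM in erythroid-like cells (34 UMIs), 4.87 CPM in non-blood tdTom- cells, 2.31 CPM in progenitor-like cells (69 UMIs) and 5.60 CPM in non-blood tdTom+ cells. As log2 folds these were -2.001 (-2.55 to -1.50) and -1.28 (-1.66 to -0.92). The highest non-blood levels lay in 1 cluster with neural markers, led by *Epha5*, *Fgf8* and *Nkx1-2*, which had 34.9 CPM in tdTom+ cells and 29.6 CPM in tdTom- cells, while the median of the 48 groups of other tissues was 2.63 CPM. Of those 48 groups, 16 were above all 7 blood groups, and endothelial-like cells, at 1.62 and 1.88 CPM, were in the range of blood.

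*Bbc3* (ENSMUSG00000002083, chromosome 7, 16308393 to 16318205, plus strand) was the member that differed most between the blood groups. It had 9.30 CPM in erythroid-like cells (260 UMIs, 8.20 to 10.5) against 16.8 CPM in non-blood tdTom- cells, and 20.4 CPM in progenitor-like cells (608 UMIs, 18.8 to 22.045) against 13.9 CPM in non-blood tdTom+ cells. The log2 folds were -0.85 (-1.05 to -0.67) and 0.55 (0.42 to 0.69). The 4 erythroid-like sub-clusters had 8.39 to 11.7 CPM and the 3 progenitor-like sub-clusters 16.4 to 27.2 CPM. Each set came from 1 library, and the share of all genes that separate in this way was not counted. The highest progenitor-like sub-cluster was led by *Myb*, *Emp3* and *Adgrg1*. Endothelial-like cells had 21.2 and 22.7 CPM, and the highest levels of all groups were 41.9 CPM (30.9 to 55.6) in 58 tdTom+ cells of an unnamed sub-cluster led by *Spi1*, *Rac2* and *Fcer1g*, and 41.5 CPM (30.6 to 55.007) in endothelial-like tdTom- cells led by *Cldn5*, *Rasip1* and *Plvap*, which do not differ beyond their intervals. The unnamed sub-cluster had 6 blood progenitor and 5 myeloid markers raised, and was in neither blood group.

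*Bnip3l* had 103 CPM in erythroid-like cells (2894 UMIs) against 215 CPM in non-blood tdTom- cells, and 75.0 CPM in progenitor-like cells (2239 UMIs) against 200.15 CPM in non-blood tdTom+ cells. Expressed as log2 folds these were -1.06 (-1.11 to -1.002) and -1.42 (-1.48 to -1.35). Centred on the median of all genes, the erythroid value was -0.41. Endothelial-like cells lay between, at 156 and 161 CPM. The split tables hold only 47.4% of the *Bnip3l* UMIs that Cell Ranger counted, against 100% to 163% for the other members, and the annotation has a processed copy, *Bnip3l-ps*, that the tables do not list. Whether the missing UMIs are spread evenly over cell types was not tested.

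**Figure D3:**
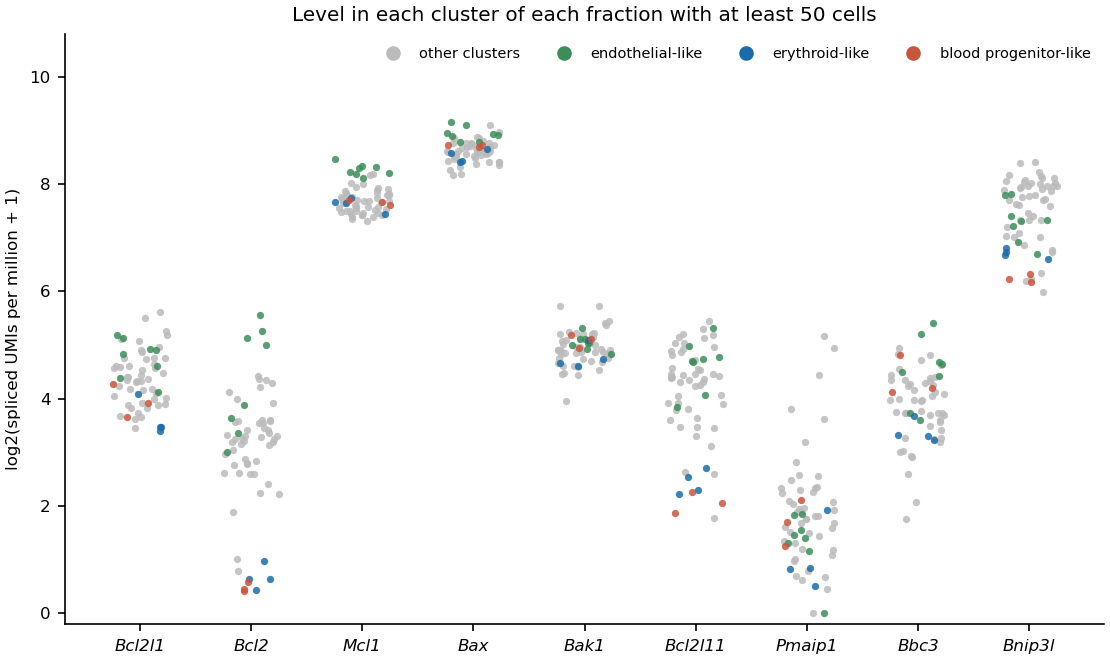
Level of each member, as log2(spliced CPM + 1), in each cluster of each fraction with at least 50 cells: 48 groups of other tissues in grey, 8 endothelial-like in green, 4 erythroid-like in blue and 3 blood progenitor-like in red (1 myeloid-like group and 2 unnamed sub-cluster groups are not drawn). The 7 blood groups lie, with few exceptions, at the bottom for *Bcl2*, *Bcl2l11* and *Bnip3l*, and within the grey range for *Mcl1*, *Bax* and *Bak1*.

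Detection per cell was read at equal depth. With each cell thinned to 5000 spliced UMIs, *Bcl2* was detected in 3 of 1411 erythroid-like cells (0.213%, Clopper-Pearson 0.0439 to 0.620) and in 3 of 1337 progenitor-like cells (0.224%), against 5.01% and 4.46% of non-blood cells. Without thinning these shares were 1.11%, 0.892%, 13.5% and 12.8%. *Bcl2l11* was detected in 2.69% and 1.57% of thinned blood cells and in 10.1% and 9.40% of non-blood cells. *Bbc3* was detected in 4.96% of erythroid-like and 10.5% of progenitor-like cells, and in 7.96% and 6.77% of non-blood cells. Median depths before thinning were 18960 and 21673 UMIs in the blood groups and 15186 and 16559 in non-blood cells.

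The unspliced table gave another readout for the 3 members with the largest unspliced shares. Unspliced *Bcl2* stood at 4.26 CPM of unspliced UMIs in erythroid-like cells (13 UMIs) and 3.77 in progenitor-like cells (14 UMIs), against 72.6 and 73.2 in non-blood cells. Unspliced *Bcl2l11* stood at 38.7 and 27.7 against 92.0 and 81.0, and unspliced *Bcl2l1* at 65.85 and 64.0 against 99.3 and 111. All 3 genes were thus lower in blood in both layers. The unspliced share of *Bcl2l11* UMIs was 48.6% in erythroid-like cells (42.1 to 55.03) and 51.8% in progenitor-like cells (44.6 to 58.9), against 41.1% and 39.0% in non-blood cells. For *Bcl2l1* the order was the other way, with 39.4% and 35.2% in blood against 45.0% and 46.4%. Over all genes, 9.84% of UMIs were unspliced in erythroid-like, 11.1% in progenitor-like, 14.3% in non-blood tdTom- and 13.6% in non-blood tdTom+ cells. *Bax* was almost wholly spliced, with 0.177% of its UMIs unspliced over all barcodes.

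The second question was how the family differs between the fractions among the most similar blood cells. Each tdTom+ blood cell took the sub-cluster held by most of the 15 tdTom- blood cells closest to it, and 1336 matched the early erythroid-like sub-cluster of 259 tdTom- cells. Of the 7 members with at least 100 UMIs, 0 were at least 2-fold higher or lower in tdTom+, against 4.77% and 3.3% of 8466 genes. The median log2 fold was -0.07 for these members and 0.03 for all genes. The matched cells were not at the same point by their markers: globins took 1.88% of UMIs in the tdTom+ and 3.88% in the tdTom- group, erythroid markers summed to 18612 and 38601 CPM, and blood progenitor markers to 851 and 338 CPM. An alternative took all blood cells, matched or not, within a range of globin share set from the early tdTom- cells (0.245% to 6.76%). These were 1230 tdTom+ and 412 tdTom- cells of all haemato-endothelial sub-clusters but the endothelial-like ones. Globin shares inside the range were not compared between the fractions. The log2 fold was then 1.01 (0.64 to 1.40) for *Bbc3* and 0.21 (-0.13 to 0.57) for *Bcl2l1*. It was -0.31 (-0.44 to -0.18) for *Bnip3l* and -0.65 (-1.24 to -0.04) for *Bcl2l11*. The part of the gap in progenitor markers was not tested. The early sub-cluster was also mixed: 55 of its cells (21.2%), and 110 of the matched tdTom+ cells (8.23%), lay in or matched a megakaryocyte-like sub-cluster at a finer resolution. Megakaryocyte markers summed to 138 CPM in the tdTom- and 31.0 CPM in the tdTom+ group, and *Ppbp* was at 0 in the former. Myeloid markers summed to 29.4 and 103.6 CPM, with *Ptprc* at 0 in the tdTom- group. The part of these cells in the differences below was measured only by leaving the megakaryocyte-like cells out, an alternative chosen after seeing the data.

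Of the 7 members with enough UMIs, *Bbc3* had the largest difference. It had 21.7 CPM in the matched tdTom+ cells (646 UMIs, 20.1 to 23.5) and 11.7 CPM in the early tdTom- cells (60 UMIs, 8.97 to 15.1), a log2 fold of 0.89 (0.50 to 1.29). Without megakaryocyte-like cells it was 1.09 (0.63 to 1.59), from 20.6 and 9.68 CPM, and so past 2-fold. In non-blood cells the sign was opposite, at 13.9 CPM in tdTom+ cells against 16.8 CPM in tdTom- cells. The mix of tissues in these cells differed between the fractions, with 1 neural cluster at 176 tdTom+ and 459 tdTom- cells. *Bbc3* ran from 2.40 to 29.9 CPM over the 48 groups of other tissues, and the part of the mix was not tested. Over the alternatives run, the early fold lay between 0.69 (-0.04 to 1.51, with cells thinned to 5000 UMIs) and 1.16 (0.78 to 1.57, less the fold in non-blood cells). The last interval is that of the early fold, shifted, and leaves out the counting error of the fold subtracted.

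*Pmaip1*, below the minimum with 75 UMIs, had 2.39 CPM in the matched tdTom+ cells (71 UMIs) and 0.783 CPM in the early tdTom- cells (4 UMIs). The log2 fold was 1.61 (0.19 to 3.52). It was 0.23 with called doublets kept, where 741 tdTom+ and 431 tdTom- cells formed the early groups.

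*Bnip3l* was lower in tdTom+, with 75.3 against 95.9 CPM and a log2 fold of -0.35 (-0.49 to -0.21). *Mcl1* had 203 and 212 CPM, *Bax* 420 and 404 CPM, and *Bak1* 33.8 and 33.1 CPM. Their log2 folds were -0.07 (-0.16 to 0.03), 0.06 (-0.01 to 0.12) and 0.03 (-0.21 to 0.27). With called doublets kept *Bax* stood at 0.22 (0.17 to 0.28) and *Bak1* at 0.28 (0.06 to 0.50), and with cells thinned *Mcl1* stood at -0.20 (-0.38 to -0.01). *Bcl2l11* had 97 UMIs in tdTom+ and 20 in tdTom-, with 3.26 and 3.92 CPM and a log2 fold of -0.26 (-0.97 to 0.51). *Bcl2* had 13 and 5 UMIs, too few to compare.

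For *Bcl2l1* no direction held over the choices of cells. It had 14.6 CPM in the matched tdTom+ cells (435 UMIs) and 16.1 CPM in the early tdTom- cells (82 UMIs), for a log2 fold of -0.13 (-0.48 to 0.22). Without megakaryocyte-like cells the values were 14.5 and 11.1 CPM and the log2 fold 0.38 (-0.07 to 0.85). The tdTom- megakaryocyte-like cells themselves had 36.8 CPM of *Bcl2l1* (38 UMIs, 26.1 to 50.6), and tdTom+ myeloid-like cells had 33.8 CPM (130 UMIs). The log2 fold was also positive with sub-clusters at resolution 2 (0.45, 0.05 to 0.88) and with called doublets kept (0.62, 0.25 to 1.01). With doublets kept the cells were also clustered anew, and 152 tdTom- cells with 4 raised megakaryocyte markers then formed an unnamed sub-cluster outside the early group, so the effects of doublets and of the cells taken cannot be told apart in any value with doublets kept.

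**Figure D4:**
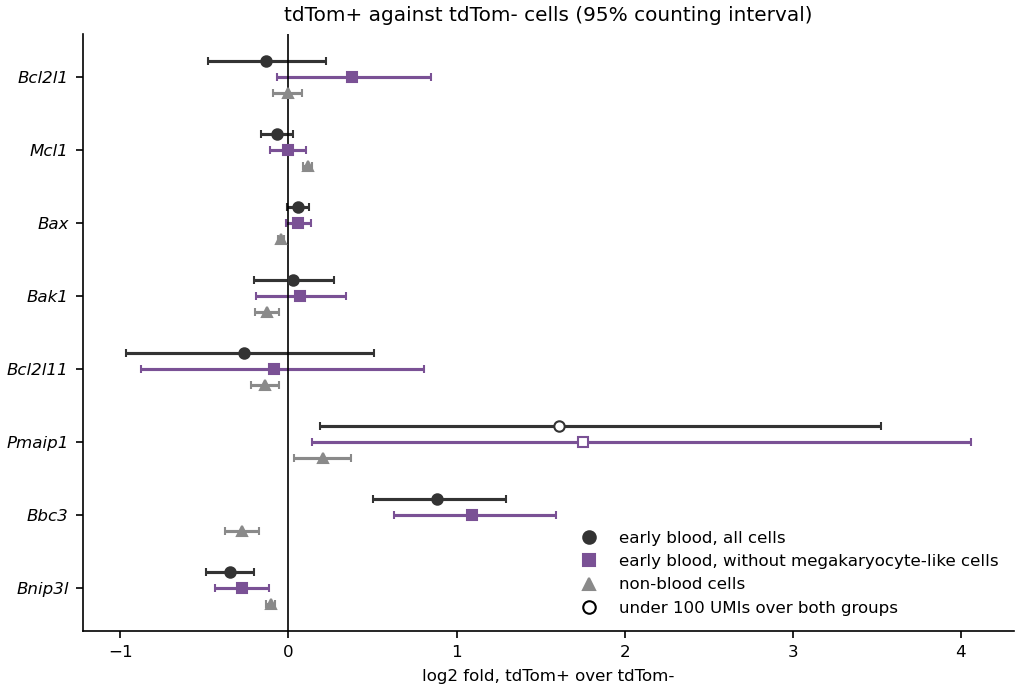
Log2 fold of tdTom+ over tdTom- cells (x axis) with 95% counting intervals, in early blood cells (circles), in the same cells without megakaryocyte-like cells (squares) and in non-blood cells (triangles). *Bcl2* is left out for its 18 UMIs. *Bbc3* lies at 0.89 and 1.09 in early blood and at -0.28 in non-blood cells, and *Bcl2l1* moves from -0.13 to 0.38.

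The same contrast was read in non-blood cells, where *Gata1* stood at 1.83 CPM in the tdTom- and 0.425 CPM in the tdTom+ fraction. Globins in these cells stood at 1.06% (tdTom-) and 0.964% (tdTom+) of their level in the blood group of the same library. The part of free RNA in the *Gata1* level was not tested. Of the 9 members 0 were 2-fold higher or lower in tdTom+, against 0.342% and 1.87% of 13169 genes. The log2 folds ran from -0.28 (-0.38 to -0.18) for *Bbc3* to 0.20 (0.03 to 0.37) for *Pmaip1*. That of *Bcl2l1* was -0.01 (-0.09 to 0.08), from 20.1 and 20.2 CPM.

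The third question was how the members change with erythroid maturation in wildtype cells. Between 1183 later and 259 early erythroid-like tdTom- cells, 0 of 7 members were 2-fold higher or lower, against 0.979% and 3.92% of 7662 genes. *Bcl2l1* had 9.93 CPM in later and 16.1 CPM in early cells, a log2 fold of -0.69 (-1.06 to -0.31), which was -0.16 (-0.63 to 0.33) without megakaryocyte-like cells and 0.22 (-0.18 to 0.62) with called doublets kept. *Bak1* had 24.4 and 33.1 CPM (-0.44, -0.69 to -0.18, and -0.13, -0.36 to 0.11, with called doublets kept), *Bax* 354 and 404 CPM (-0.19) and *Mcl1* 191 and 212 CPM (-0.16), near the median of all genes of -0.19. *Bnip3l* had 105 and 95.9 CPM, a log2 fold of 0.13 (-0.01 to 0.28).

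Erythroid-like cells were also ranked by their share of UMIs on globins, which rises with maturation, and put in 5 bins of 288 or 289 cells with median shares of 3.85%, 7.15%, 9.34%, 11.7% and 15.3%. Levels in the bins are CPM over non-globin UMIs. *Bnip3l* went from 102 in the lowest bin to 131 in the highest (intervals 93.5 to 111 and 121 to 141). *Bak1* went the other way, from 34.0 to 22.8 (29.1 to 39.5 and 18.7 to 27.4). *Bcl2l1* was highest at both ends, with 16.9, 9.74, 8.57, 10.4 and 15.9. Without megakaryocyte-like cells the lowest bin was at 11.8 (8.90 to 15.3), the fourth at 11.5 and the highest at 15.5 (12.2 to 19.5). The middle bin was at 8.26 (5.93 to 11.2), which overlapped the lowest but not the highest. *Bax* was 418, 418, 407, 349.58 and 418, with the fourth bin (333.50 to 366.22) outside the intervals of the others. *Mcl1* varied from 209.5 to 228. The bins share a library, and their order says nothing of time by itself.

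**Figure D5:**
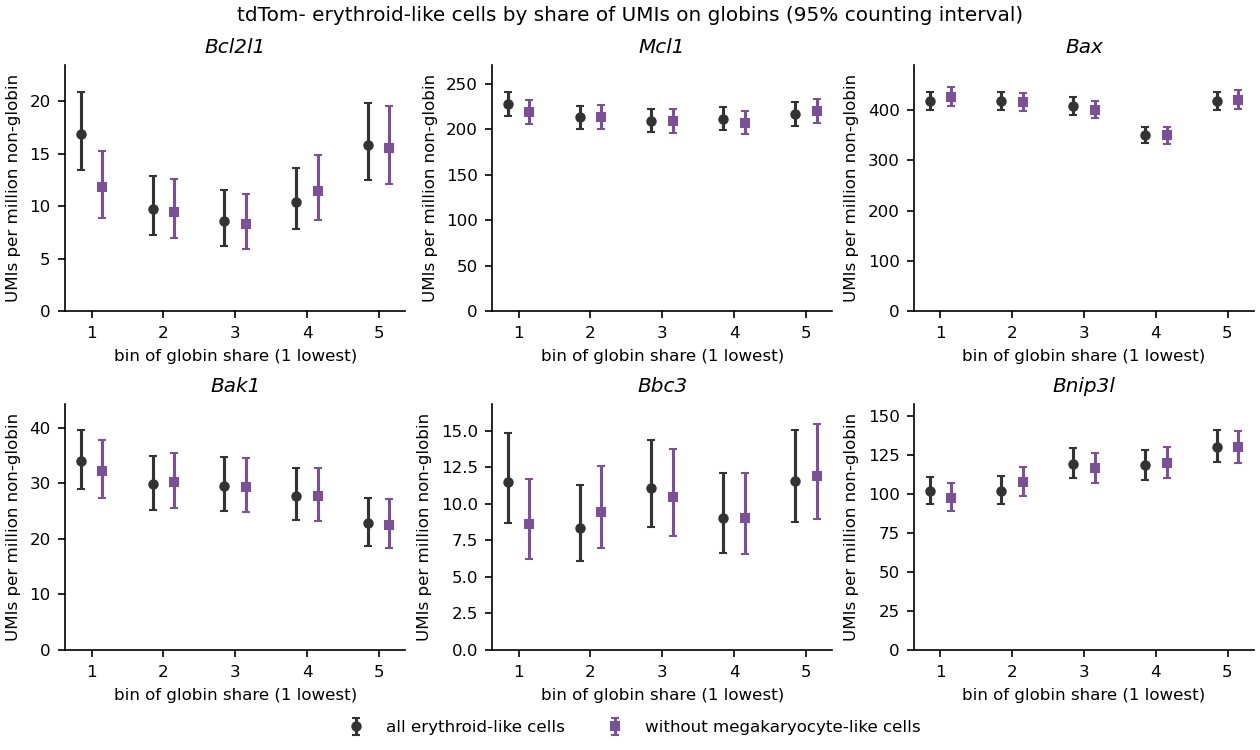
Levels in CPM over non-globin UMIs (y axis, from 0) in 5 bins of tdTom- erythroid-like cells ranked by globin share (x axis), with 95% counting intervals, for all cells (circles) and without megakaryocyte-like cells (squares). *Bnip3l* is highest and *Bak1* lowest in the top bin, *Bcl2l1* is higher in the top than in the middle bin with or without megakaryocyte-like cells, and *Bax* dips in the fourth bin.

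The genes closest to each member in pattern were sought among 9152 candidates by the Pearson r of log2(CPM + 10) over the 66 groups, which share 2 libraries, so the values are a description. *Bnip3l* had the closest, the glycolytic enzyme genes *Pfkl* (0.93) and *Pkm* (0.91) and then *Fam162a* (0.85). *Mcl1* was closest to *Ralb* (0.86), *Emilin1* (0.83) and *Pitpna* (0.83), and *Bcl2* to *Plekho1* (0.83), *Rasal2* (0.80) and *Syne2* (0.78). *Bcl2l11* was closest to *Ier5l* (0.79), *Ccnd1* (0.78) and *Ddx41* (0.76), and *Bax* to *Klhdc4* (0.77), *Eif6* (0.74) and *Bud31* (0.68). *Bcl2l1* was closest to *Nudt14* (0.77), *Casp8* (0.75), the initiator caspase gene of death receptors, and *Itga6* (0.70). *Pmaip1* was closest to *Hes3* (0.75), *B230323A14Rik* (0.66) and *Camkv* (0.65), *Bak1* to *Arhgap45* (0.71), *Slc44a2* (0.68) and *Lgals1* (0.67), and *Bbc3* to *Haus4* (0.70), *Atg101* (0.63) and *Fkbp5* (0.62).

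The rest of the pathway was read from 7 lists of 78 genes, beside medians of all genes of -0.65 in erythroid-like and -0.36 in progenitor-like cells against non-blood cells, and of 0.03 between the fractions in early blood. The share of all genes at least 2-fold lower or higher was 41.4% and 4.59% in erythroid-like cells, 32.5% and 5.94% in progenitor-like cells, and 3.3% and 4.77% between the fractions. Of the other Bcl2 family genes, 5 of 9 with enough UMIs were at least 2-fold lower in erythroid-like than in non-blood cells and 0 higher, beside the background of 41.4%. *Bok*, a further effector, had 1.14 against 42.05 CPM (log2 fold -5.20). At 2.72% of its non-blood level it lay, like *Bcl2*, within the range of the non-blood marker lists, as did *Bcl2l14*, with 1 UMI against 111. *Bid*, which links death receptors to Bax and Bak, had 26.5 against 13.6 CPM (0.96), and *Bcl2l13* 36.4 against 29.6 CPM (0.30). In progenitor-like cells 3 of 8 were lower and 1, *Bid*, higher, at 65.4 against 13.7 CPM. Between the fractions in early blood 0 of 5 passed 2-fold, with *Bid* at 65.7 CPM in tdTom+ against 37.0 CPM in tdTom- (0.83), *Bcl2l12* at 27.9 and 17.6 CPM (0.66) and *Bcl2l13* at 28.1 and 38.0 CPM (-0.44). The list medians were -1.65, -0.75 and 0.21.

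Downstream of the mitochondria, 2 of 14 apoptosome and caspase genes were lower in erythroid-like cells and 0 higher, against 41.4% and 4.59% of all genes. *Casp6*, a caspase gene, had 9.98 against 26.9 CPM (-1.43). The highest folds were those of the mitochondrial protease gene *Htra2* (0.88) and of *Cycs*, the gene of cytochrome c (0.65). In progenitor-like cells 3 of 14 were higher and 0 lower, against 5.94% and 32.5%. Between the fractions in early blood 1 of 14 was higher and 0 lower, against 4.77% and 3.3%. *Casp6* had 14.9 and 10.6 CPM (0.49). The list medians were -0.04, 0.30 and 0.10.

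Of 5 caspase inhibitors 0 passed 2-fold in erythroid-like cells and 1 was higher in progenitor-like cells, and between the fractions 0 of 4 did, with *Birc2* at 0.55 and *Birc5* at -0.13. Of all genes, 4.59%, 5.94% and 4.77% were higher in the same order, and 41.4%, 32.5% and 3.3% lower. Against non-blood cells *Xiap* stood at -0.96, *Birc2* at -0.93 and *Birc5* at 0.10. The inhibitor medians were -0.45, 0.02 and 0.22. Of 7 death receptor genes 3 were lower in erythroid-like cells, *Casp8* (-3.38) and *Tnfrsf1a* (-2.86) the most, with *Ripk1* (0.42) and *Fadd* (0.26) the highest, and 2 of 7 were lower in progenitor-like cells. Both counts were near the shares over all genes, 41.4% and 32.5%. At 1.07 against 11.2 CPM in erythroid-like cells, *Casp8* too was within the range of the non-blood marker lists, below only the neural crest list. Between the fractions 0 of 5 passed, with *Casp8* at 7.03 and 3.52 CPM (0.995) and *Tradd* at 12.3 and 8.62 CPM (0.51). The death receptor medians were -0.69, -0.28 and 0.03.

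Of the p53 pathway genes 3 of 11 were lower in erythroid-like cells, *Zmat3* (-1.91) and *Phlda3* (-1.75) the most, while *Ccng1* (0.90) and *Aen* (0.35) were highest. In progenitor-like cells 3 of 12 were lower and 1 higher. Both counts of lower genes were below the shares over all genes, 41.4% and 32.5%. The shares of all genes higher were 4.59% and 5.94%. Between the fractions 2 of 9 were higher, against 4.77% of all genes, and *Bbc3* and *Pmaip1* are themselves p53 targets. *Perp*, a p53 target of the cell membrane, had 98.9 CPM in the matched tdTom+ cells (2942 UMIs) and 2.15 CPM in the early tdTom- cells (11 UMIs), for a log2 fold of 5.52 (4.68 to 6.52). *Sesn2* had 11.3 and 5.29 CPM (1.095), and *Mdm2* 47.0 and 55.4 CPM (-0.24). *Cdkn1a* (0.63) and *Ccng1* (0.46) also had intervals above 0. Those of *Trp53* (-0.08), *Mdm4* (0.14), *Aen* (-0.16) and *Phlda3* (0.10) held 0. *Perp* also stood at 97.1 CPM in progenitor-like against 10.5 CPM in non-blood tdTom+ cells. A part of p53 in these differences was not tested. The list medians were -0.48, -0.32 and 0.14.

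Of the mitophagy and autophagy genes 3 of 14 were lower in erythroid-like cells, *Map1lc3a* (-1.34) and *Ulk1* (-1.25) the most, with *Optn* (0.93) and *Gabarapl1* (0.68) highest, and in progenitor-like cells 2 were higher and 1 lower. The shares of all genes lower were 41.4% and 32.5%, above these counts, and those of all genes higher were 4.59% and 5.94%. Between the fractions 1 of 14 was higher, against 4.77% of all genes. This was *Ulk1*, with 8.57 and 3.33 CPM (1.36). *Sqstm1* stood at 0.45 and *Optn* at -0.83. The list medians were -0.49, -0.10 and 0.09.

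The upstream signals were the only list with genes at least 2-fold higher in erythroid-like cells, 3 of 7, against 4.59% of all genes. *Epor*, the erythropoietin receptor gene, had 84.2 against 1.88 CPM (5.48) and *Stat5a* 6.08 against 0.690 CPM (3.14), while *Kit* stood at -0.81 and *Hif1a* at -0.67. In progenitor-like cells 4 of 7 were higher, against 5.94% of all genes. Between the fractions 2 of 7 were higher in tdTom+, against 4.77% of all genes. These were *Kit* with 107 and 16.1 CPM (2.74) and *Stat5a* with 37.2 and 12.3 CPM (1.59). *Epor* was lower, with 46.2 and 75.0 CPM (-0.70, -0.86 to -0.53). The list medians were 0.80, 2.92 and 0.18. Between the fractions in non-blood cells 1 of 12 p53 pathway genes, *Zmat3* (-1.07), was lower and 0 genes of the other lists were past 2-fold, against 1.87% of all genes lower and 0.342% higher. In later against early erythroid-like cells, 2 of 7 upstream signals were lower, *Kit* (-1.76) and *Stat5a* (-1.40), against 3.92% of all genes. Of 9 p53 pathway genes 1 was higher, *Cdkn1a* (1.24), against 0.979% of all genes. The early group was 21.2% megakaryocyte-like cells and the later group 0%. At the finer resolution *Cdkn1a* was a leading gene of 14 tdTom- erythroid-like cells. The part of either in these folds was not tested.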

How the data were processed

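The authors sequenced 10x Genomics libraries of the tdTom+ and tdTom- fractions. Per the submitters' processing notes they used Cell Ranger 3.0.2 and mm10. The deposited velocyto tables hold raw spliced and unspliced UMI counts per gene and cell, and the deposited cell metrics hold the percent of counts on mitochondrial genes. Doublets were called with Scrublet (367 tdTom+, 530 tdTom-) and removed with 1 cluster in which over 50% of cells were called. All barcodes, called doublets included, were clustered before this removal (1950 variable genes, 50 components, 20 neighbours, resolution 1.5). The kept cells of haemato-endothelial clusters were split again (2572 genes, 30 components, 15 neighbours, resolution 1). Clustering used scanpy 1.11.5, leidenalg 0.10.2, igraph 0.11.9 and scikit-learn 1.9.0 under Python 3.11.15. The 104 genes left out of clustering included the members, the lists and the globins. A cluster took the name of the class with the most markers raised, if these were 3 or more, at least 2-fold with 10 CPM added. It was left unnamed at a tie, or where another class had more markers among its leading genes. A cluster of low depth also needed a marker of its class among them. The sub-cluster names were rebuilt here and may differ from those of the study.

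UMIs were summed per group. Folds have exact conditional intervals, levels Poisson and shares Clopper-Pearson intervals (numpy 2.4.6, scipy 1.17.1, pandas 2.3.3), which were checked on simulated data. Folds were counted from 2-fold up in genes with at least 100 UMIs over both groups. With 1 library per fraction there was no test. The patterns most like a member were read as Pearson r of log2(CPM + 10) over groups of at least 50 cells, naming 3 genes per member. The genes named from each list were the 2 highest and 2 lowest folds of those with at least 100 UMIs and an interval off 0. Further list genes, and the cluster extremes, were chosen after their values were seen. The values of 1 list gene are not reported here. Members and lists were chosen with earlier results of these data known. Alternatives were other scalings, adding unspliced UMIs, the mean over cells, thinning to 5000 UMIs, a minimum of 20 UMIs, keeping doublets, resolution 2, cosine distance, a range of globin share, subtracting the non-blood fold and neural-marker cells as the reference. Figures were drawn with matplotlib 3.10.9.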

Additional observations from a re-analysis of the deposited data

Results flagged for a closer look

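For 3 members the log2 fold of blood over non-blood cells had opposite signs in the fractions with both intervals off 0. *Bax* stood at -0.14 in erythroid-like tdTom- cells and at 0.11 in blood progenitor-like tdTom+ cells, *Bak1* at -0.26 and 0.22, and *Bbc3* at -0.85 and 0.55. The cells compared differ in kind as well as in genotype, and the difference was not tested. Once folds were centred on the median of all genes, *Bax* (0.50 and 0.47) and *Bak1* (0.39 and 0.58) had the same sign in both fractions, while *Bbc3* (-0.21 and 0.91) did not.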

How the results depend on the processing

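Of 340 member folds under alternatives, 272 stayed within the counting interval and 68 did not, and of 94 counts of members past 2-fold, 88 stayed within 1.5 times their value. Among the latter, the 4 members lower in erythroid-like cells became 3 without globin UMIs, centred on the median and with unspliced UMIs added, and 5 with doublets kept, which also changed the clusters (*Bcl2l1* added), and against neural-marker cells (*Bbc3* added), and the 4 lower in progenitor-like cells became 3 once centred. Between the fractions in early blood the count of members at least 2-fold higher was 1 in place of 0 under several alternatives. The member was *Pmaip1* with unspliced UMIs added and with a minimum of 20 UMIs. It was *Bbc3* for all blood cells within a range of globin share, less the non-blood fold, and without megakaryocyte-like cells. The last was chosen after seeing the data. The count of members at least 2-fold lower was 1 with cells thinned to 5000 UMIs (*Bcl2l11*). With unspliced UMIs added the *Bcl2l1* share of pro-survival UMIs was 8.33% in erythroid-like, 9.80% in progenitor-like, 14.04% in non-blood tdTom- and 13.65% in non-blood tdTom+ cells, in place of 5.36%, 6.78%, 9.08% and 8.49%, by the inclusion of intronic UMIs. The causes of the other changes were not tested. No paired analysis was possible because each fraction had 1 library. Leaving out a replicate was not possible for the same reason. Depth limits *Bcl2*, with 16 and 12 UMIs in the blood groups, and *Pmaip1*, with 34 and 69.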

Other observations

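*Bak1* shares positions with *Ggnbp1* on the opposite strand, which had 291 spliced UMIs, and *Bax* with *Gm45808* on the same strand, which had 0. Over the 48 groups of other tissues, *Bcl2l11* was highest at 42.8 CPM (35.6 to 51.0) in tdTom- cells led by *Tdo2*, *Lum* and *Col3a1*. The next were neural tdTom+ cells led by *En1*, *Fam181b* and *Pax5*, at 38.4 CPM (31.8 to 46.0), and the intervals overlapped. *Bbc3* was lowest of the 48 groups in the tdTom- cells led by *Tdo2*, at 2.40 CPM. *Bnip3l* was highest in neural-marker cells led by *En1*, *Fam181b* and *Pax5*, at 338 CPM in the tdTom- and 337 CPM in the tdTom+ cells. In tdTom+ myeloid-like cells *Pmaip1* had 13.3 CPM (51 UMIs, 9.87 to 17.4) and *Bak1* 53.02 CPM (204 UMIs, 46.0 to 60.8), and *Bcl2* had 14 UMIs.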
